A study of Drosophila melanogaster with 3 samples.

Results

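The regions described here are 492 binding summits of a tagged transcription factor that lay inside introns of *Drosophila melanogaster* genes, close to but not at a transcription start site (TSS). They were taken by position alone from the 3866 peaks of the optimal peak list. A summit was kept if it fell inside a protein-coding gene, in no exon of any gene, and more than 500 bp but at most 2000 bp from the nearest protein-coding TSS. They made up 12.7% of the list (95% exact interval 11.7 to 13.8%). The others were 2113 promoter summits (within 500 bp of a protein-coding TSS), 646 intronic summits over 2000 bp from one, 482 intergenic summits and 133 exonic summits.

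The assay was chromatin immunoprecipitation followed by sequencing (ChIP-seq), in 3 biological replicates of 1 group. The embryos were whole, of mixed sex and 0 to 24 hours old, from a transgenic line (strain 16T-GFP) with Empty spiracles (Ems) stably expressed with GFP at its C-terminus, a fusion that all 3 replicates carry. Per the description in the labels the tag was immunoprecipitated with an antibody to GFP, while the antibody field reads ems. Whole embryos mix all tissues, and the sources used here do not name the promoter that drives the fusion, so a peak cannot be assigned to a cell type.

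Ems is a homeodomain protein that patterns the embryonic head and brain and is needed for the spiracles. Homeodomains of its kind recognise short sites with a TAAT core. In flies, first introns often carry enhancers, short stretches that recruit transcription factors and act on a nearby promoter. Many housekeeping promoters instead carry other sequence elements, among them the element bound by DREF, the Motif 1 element and the sites of the boundary protein BEAF-32.

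The sequences of a few summits are printed first, because they show the words on which the comparisons below turn. All are the forward strand of Release 6 of the genome (dm6), from RefSeq's copy of the assembly. The strongest summits with ACTGTA, in either orientation, within 50 bp of the summit lay in *Lk6* (chr3R:11761016-11761116) and *CG9663* (chr2L:3302135-3302235). The word is in capitals.
Lk6: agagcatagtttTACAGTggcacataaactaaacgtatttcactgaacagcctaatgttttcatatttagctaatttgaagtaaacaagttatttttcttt
CG9663: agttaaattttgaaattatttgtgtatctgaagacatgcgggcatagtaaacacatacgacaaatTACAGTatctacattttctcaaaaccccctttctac

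The next windows reach 140 bp to each side and show summits with ACTGTA or ACACTG, in capitals, on both sides of the summit base. They lay in *norpA* (chrX:4324858-4325138) and *for* (chr2L:3655668-3655948), which were among the strongest such intronic summits found in all 3 replicates. Of the 341 intronic summits found in all 3 replicates, 22 had such words between 50 and 140 bp away on both sides. No such count was made for other classes or for flanks, so the share has no background. In both printed windows, TACAGT stood to the left and its reverse complement ACTGTA to the right. There the pair framed the summit as an inverted repeat. How many of the 22 had this layout was not counted.
norpA: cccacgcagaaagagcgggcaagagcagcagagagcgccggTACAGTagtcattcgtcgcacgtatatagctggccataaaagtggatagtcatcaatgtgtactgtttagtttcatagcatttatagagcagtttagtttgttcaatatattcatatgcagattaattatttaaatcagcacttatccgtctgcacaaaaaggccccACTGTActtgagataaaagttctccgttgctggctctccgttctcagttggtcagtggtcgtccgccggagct
for: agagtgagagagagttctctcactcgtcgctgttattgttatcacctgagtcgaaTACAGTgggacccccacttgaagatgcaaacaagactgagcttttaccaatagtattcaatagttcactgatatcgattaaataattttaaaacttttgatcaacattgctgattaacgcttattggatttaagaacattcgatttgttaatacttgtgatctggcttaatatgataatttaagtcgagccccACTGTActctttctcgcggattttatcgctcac

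The strongest intronic summit with the homeodomain core TAATTA within 50 bp lay in *CG11050* (chr2L:6612664-6612764). The strongest with CGATAG, which holds the letters CGATA found in both the DREF and the BEAF-32 elements, lay in *CG15822* (chr3L:2162131-2162231) and ranked 710 in the list. For contrast, the strongest promoter summit with CGATAG in the same distance ranked 7 and lay 102 bp from a TSS of *Chro* (chr3L:22878832-22878932). Capitals mark TAATTA in the first and CGATAG in the others.
CG11050: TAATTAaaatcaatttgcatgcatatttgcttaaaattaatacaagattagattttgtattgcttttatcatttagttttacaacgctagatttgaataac
CG15822: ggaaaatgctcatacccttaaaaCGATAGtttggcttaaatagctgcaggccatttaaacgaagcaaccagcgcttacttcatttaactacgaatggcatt
Chro promoter: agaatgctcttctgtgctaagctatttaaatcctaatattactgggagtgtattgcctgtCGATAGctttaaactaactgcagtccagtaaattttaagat

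Read depth is unknown, since peak lists carry no counts of reads, and the intervals given for shares reflect counting error alone. Each replicate list held 30000 entries, of which 3527, 4276 and 4599 had q under 0.01 in replicates 1, 2 and 3. To make the lists alike, the 3866 entries with the highest signal were used from each. The signal scale is not stated in the sources used here, so peaks were compared by rank within a list. None of the 492 summits lay in any of the 5659 mobile elements that RefSeq annotates on these arms, which allows a share of up to 0.747% (exact interval). No 51-base summit centre was found more than once on arms 2L, 2R, 3L, 3R, 4 and X, the only sequence searched.

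Applied to each replicate's own 3866 strongest peaks, the same positional rule gave 493, 520 and 494 summits, or 13.0% ± 0.396 (SD, n = 3) of the list. The share therefore hardly moved between replicates and lay close to that in the optimal list. The distance of the 492 summits to the nearest TSS had quartiles of 742, 1032 and 1428 bp. Just inside the near limit were summits in *CG42671* and *wun*, both at 505 bp, with ranks of 304 and 2469. On its other side were one shared by *CG10663* and *CG33725* at 500 bp (rank 1371) and one in *ush* at 499 bp (rank 2355). At the far limit, *px* at 1993 bp (rank 1599) and *pot* at 1992 bp (rank 2134) were inside. *CG43658* and *Mmp2*, both at 2009 bp with ranks of 2324 and 2697, were outside. Ranks on either side overlapped at the near limit, while at the far limit both summits inside ranked ahead of both outside.

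Intronic summits were sparser the farther they lay from a TSS. Counted per Mb of intronic sequence that met the same rule (9.93 Mb in all), their density was 64.2 between 500 and 750 bp from a TSS and 58.5 between 750 and 1000 bp. It was 48.2, 41.3, 39.7 and 37.8 in the following bins of 250 bp. In the nearest bin the replicates gave 67.8, 74.4 and 66.3 per Mb, and in the farthest 35.5, 41.5 and 37.8, so those bins did not overlap. Beyond the far limit the density was 26.5 per Mb between 2000 and 5000 bp, and 12.7 per Mb farther out. All 492 together had 49.6 per Mb (Poisson interval 45.3 to 54.1; replicates 50.6 ± 1.54 SD, n = 3).

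**Figure D1:**
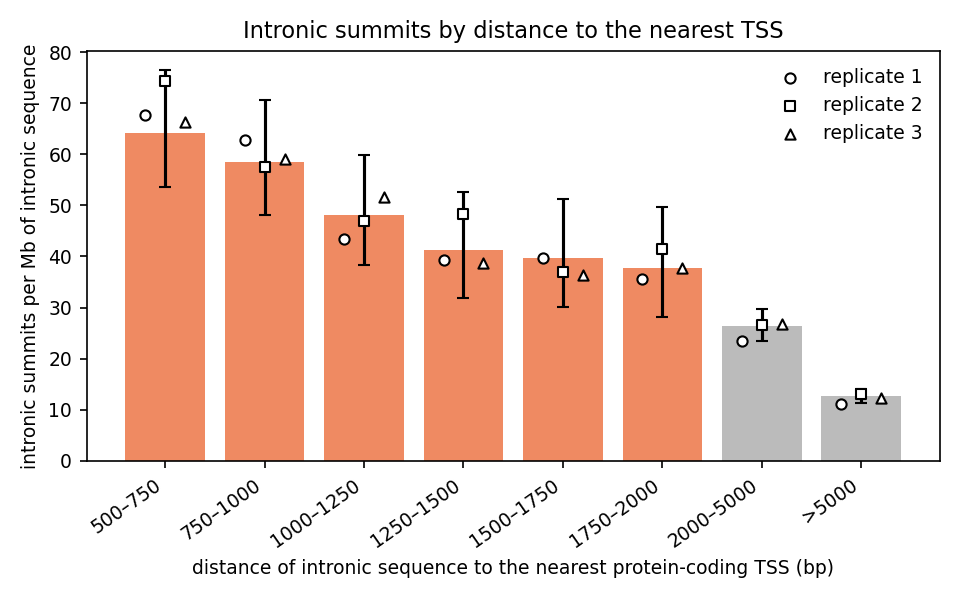
Intronic summits per Mb of intronic sequence (y axis) by distance to the nearest protein-coding TSS in bp (x axis). Orange bars are the 492 summits in the optimal list, grey bars intronic summits beyond 2000 bp, lines 95% Poisson intervals, and points each replicate's own list; the density falls from 64.2 in the nearest bin to 12.7 beyond 5000 bp.

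The density also differed between chromosome arms. On the X chromosome it was 61.2, 61.7 and 62.2 per Mb in the 3 replicates, and on 3R it was 59.6, 58.7 and 54.2. On 2L it was 43.3, 44.4 and 43.8, and on 2R 42.6, 46.8 and 41.0. Arm 3L, with 41.5, 50.2 and 47.6, lay with these. Every replicate value of X and 3R was thus above every value of 2L, 2R and 3L. Chromosome 4 held 1 summit. The difference between arms was not tested.

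Within their genes, 417 of the 492 summits (84.8%) lay in the first intron of a transcript, while first introns made up 66.4% of the sequence that met the rule. The nearest TSS was that of the host gene for 455 summits, of which 315 were downstream and 140 upstream of it, the latter ahead of an alternative start inside the gene. For the other 37 it was a TSS of another gene, nested in or next to the host. In all, 65.7% lay downstream of the nearest TSS, against 67.4% of the eligible sequence, so neither side held more than its share of sequence by a visible margin. For 128 of the 492 summits (26.0%, exact interval 22.2 to 30.1%) the nearest TSS had a second optimal summit within 500 bp. Among all 19252 protein-coding TSSs, 17.5% had a summit that close. That share is counted per TSS, with or without eligible intron nearby, and the first per summit, where several summits can share a TSS. Another optimal summit lay within 1000 bp of 22.0% of the intronic summits, against 16.6% of promoter summits, 12.7% of farther intronic summits and 14.3% of intergenic ones. By their distance limits, farther intronic summits cannot lie within 1000 bp of a promoter summit, while the near ones can. The class rule thus fixes part of this difference. The intervals of 39 (7.93%) overlapped another interval of the optimal list, and such pairs can match a single peak in a replicate.

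The optimal list was made from these replicates by their reproducibility, so its peaks recur in them by construction, and recovery is given to compare classes. Of the 492 summits, 341 (69.3%) matched one of the 3866 strongest peaks in all 3 replicates by at least 1 bp, 103 in 2, 46 in 1 and 2 in none. The pair without a match lay in *CG9171* and in *insc* and *sktl*, and had entries further down each replicate list. By replicate, 82.1, 88.6 and 88.4% were recovered, a mean of 86.4% ± 3.70 (SD, n = 3). In the whole lists of 30000 entries, 489, 490 and all 492 had a match.

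Recovery of promoter summits was 81.6, 86.3 and 88.8%, which overlaps the intronic values. The difference between the classes was 0.817 percentage points ± 1.39 (SD, n = 3; p = 0.5, exact two-sided sign-flip permutation test over replicates). Intronic summits beyond 2000 bp were recovered at 74.3, 84.8 and 87.0%. Within each replicate this was lower than for the intronic summits near a TSS, by 4.34 points ± 3.23 (SD, n = 3; exact p = 0.25). The difference was 2.60 points without replicate 1, and 2.14 points (exact p = 0.75) with replicate peaks of q under 0.01. Intergenic summits, with 72.6, 83.2 and 86.3%, were lower by 5.68 points on average, also in 3 of 3 replicates (exact p = 0.25). That difference was 3.77 points without replicate 1, and 3.72 (exact p = 0.5) with peaks of q under 0.01. With 3 replicates 0.25 is the smallest p this test can give, so none of these differences can pass a threshold of 0.05.

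By rank, too, the farther intronic and intergenic summits were behind. The median intronic summit near a TSS stood at 46.7, 50.4 and 48.3% of the replicate lists, where a low percentage means a strong peak. Farther intronic summits stood at 52.1, 54.2 and 53.0%, and the near summits minus these gave -4.63 points ± 0.784 (SD of the paired differences, n = 3; exact p = 0.25), the near ones being stronger in 3 of 3 replicates. Intergenic summits stood lower still, at 52.5, 56.8 and 55.6% (difference -6.49 points ± 0.777, exact p = 0.25), while promoter summits, at 46.9, 46.2 and 47.2%, could not be separated from the intronic ones (1.69 points ± 2.25, exact p = 0.5). Among the 200 strongest peaks of each replicate, 14.5, 14.5 and 14.0% were intronic summits near a TSS, against 7.0, 6.0 and 6.5% from farther introns and 64.5, 68.5 and 67.5% from promoters. Their shares of the whole 3866, for comparison, were 13.0% ± 0.396, 16.1% ± 1.18 and 54.8% ± 0.797 (SD, n = 3), so promoters took more of the strongest peaks than of the list, and farther introns less.

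**Figure D2:**
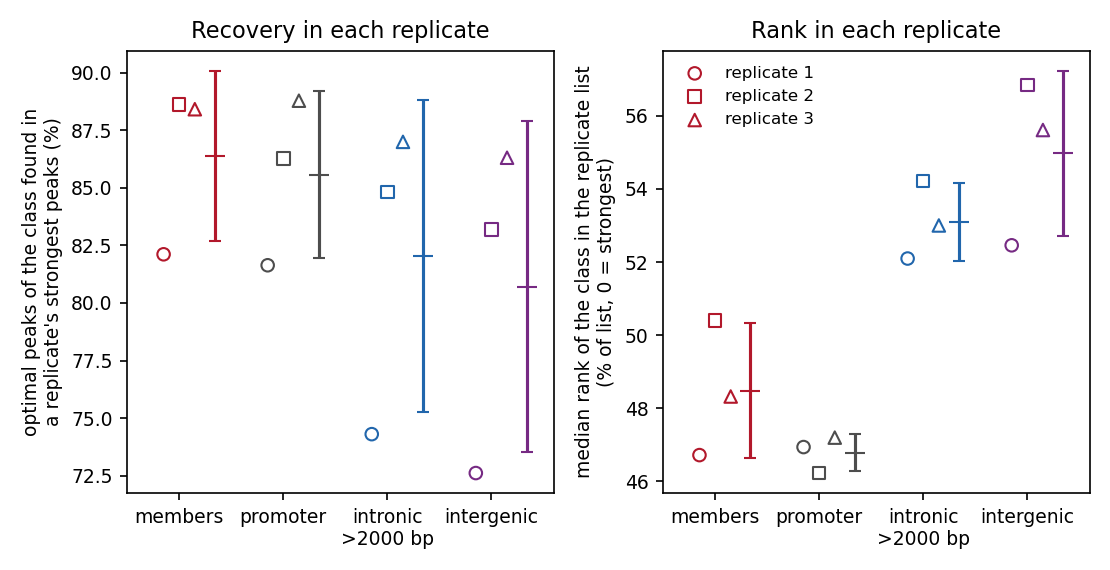
Left: share of each class of optimal peaks found among a replicate's 3866 strongest peaks (%). Right: median rank of the class in each replicate list (% of the list, 0 is strongest). Open symbols are replicates, bars the mean and SD (n = 3), and the axes do not start at 0; the intronic summits near a TSS (members) sit with promoters, and replicate 1 is the lowest in the left panel for each of the 4 classes plotted.

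The summits named here are the 25 with the highest signal among the 341, so that recurrence in the replicates was part of their choice. The first lay in the first intron of *ush*, which encodes a zinc-finger cofactor of GATA factors, and 1370 bp from the TSS of the neighbouring transcription factor gene *cbt*. It ranked 2 in the optimal list and 1, 2 and 2 in replicates 1, 2 and 3. *CG11050* ranked 3 (2, 5 and 3 in the replicates). *Lk6*, a kinase gene whose product phosphorylates the translation factor eIF4E, ranked 9 (10, 10 and 9). In these leading summits the replicates differed by a few ranks only.

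Several host genes of the 25 encode chromatin or transcription proteins. *Trl*, the gene of the GAGA factor, ranked 36 in the optimal list and 34, 35 and 41 in the replicates. *Adf1*, a transcription factor of the Myb/SANT family, ranked 41 (48, 47 and 40), and *NFAT*, another transcription factor, ranked 46 (39, 56 and 42). The summit shared by *HmgZ* and *HmgD*, which encode HMG-box chromatin proteins, ranked 32 (32, 30 and 39). *wde*, whose product is a partner of a histone H3K9 methyltransferase, ranked 90 (87, 64 and 104).

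Others encode enzymes and signalling or junction proteins. *norpA*, the phospholipase C of vision, ranked 85 (67, 111 and 81), and *for*, a cGMP-dependent protein kinase, ranked 95 (80, 134 and 90). *Zw*, glucose-6-phosphate dehydrogenase, ranked 118 (123, 171 and 97). *LPCAT*, *Prps* and *schlank*, which encode an acyltransferase of phospholipids, a phosphoribosyl pyrophosphate synthetase and a ceramide synthase, ranked 49, 146 and 154. *cno*, which links junctions to actin, ranked 150 (140, 210 and 146). *mub*, an RNA-binding protein gene, ranked 128, and the *chif* and *Hyls1* locus ranked 60. The remaining hosts among the 25 were *CG32772*, *CG9663*, *CG9837*, *CG31635*, *CG3726*, *Reph*, *CG4496* and *CG42327*. Of the 25, 23 lay in a first intron, 16 downstream of the nearest TSS, and 8 beside a TSS with a summit of its own. The lowest rank that any of them had in any replicate was 210.

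**Figure D3:**
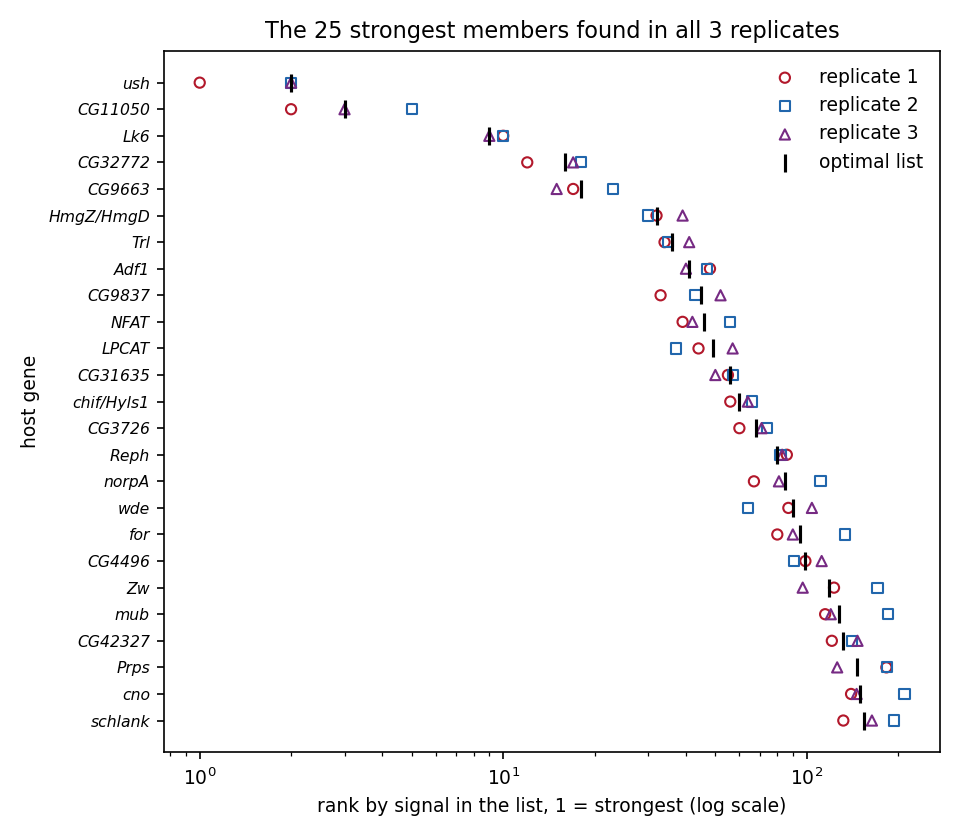
Rank by signal (x axis, log scale, 1 is the strongest) of the 25 strongest intronic summits near a TSS that were found in all 3 replicates, one row per summit, named by host gene. Open symbols are the replicates and black ticks the optimal list; all values lie between 1 and 210.

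In all, 443 genes hosted a summit, which is 4.89% of the 9062 protein-coding genes with sequence that met the rule. Most hosts, 378, held 1 summit, 53 held 2 and 9 held 3. *CG10543* and *NFAT* held 4 each. *CG1677*, a long gene on the X chromosome (chrX:7281089-7405797) with other genes nested in it, held 8, whose nearest TSSs belonged to *CBP*, *Dok*, *brk*, *CG42780* and *unc-119*. Genes with 3 included *CG32264*, *CG42258* and *CHES-1-like*. The gene *ems* itself held none.

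For each gene list the share of hosts is to be read beside the median length of eligible intron per gene. This was 379 bp over all genes and longer in nearly all of these lists. It was 3975 bp for neuroblast, 3831 for ecdysone response, 1652 for head patterning and 1649.5 for Wnt, Hedgehog and Dpp genes. It was 1514 bp for Hox, 1467 for axon guidance, 1214 for tracheal and 1043 for Notch genes. Growth regulators had 828.5 bp, Polycomb and trithorax group genes 634 bp and the insulator list 220.5 bp. Over all genes 4.89% were hosts. A host holds the summit in an intron, and the nearest TSS can be that of another gene. Head patterning genes gave 1 host, *cnc* (rank 2857), of 6 with eligible sequence, and Hox genes 1, *Abd-B* (rank 3223), of 8. Neither the 11 gap and pair-rule genes (median 759 bp) nor the 33 other homeobox genes (1255 bp) gave a host.

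In the receptor tyrosine kinase and Ras pathway, 8 of 25 genes were hosts (32%, median eligible length 1500 bp). The strongest summits among them were in *InR*, the insulin receptor (rank 250; 215, 373 and 219 in the replicates), and in *S*, the gene of Star, which helps export Egfr ligands (303; 422, 367 and 228). They were followed by *drk*, the Grb2-type adaptor (343; 494, 255 and 378), and *ths*, an FGF ligand (499; 491, 642 and 421). The remaining hosts were *Egfr*, *pnt*, *aop* and *sty*, with ranks from 1451 to 3129. For the summits in *drk* and *Egfr* the nearest TSS was that of another gene. In the Wnt, Hedgehog and Dpp pathways 4 of 24 genes were hosts. They were *Mad*, the transducer of Dpp signals (rank 202), *put*, a type II receptor (1436), *shn* (1445) and *sgg*, the fly GSK3 kinase (1768). *brk*, of the same list, had the nearest TSS of a summit but was no host. The Notch pathway gave *neur*, a ubiquitin ligase that acts on Delta (rank 563), 1 of 15.

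Axon guidance and neural adhesion genes gave 6 of 28, with *fra*, the netrin receptor, the highest (1116), before *Ptp10D* (1347), *trio* (1746) and *NetB* (1905). Counted by gene of the nearest TSS, this list gave only 2, *Ptp10D* and *Ptp99A*, so the summits in *fra*, *trio* and *NetB* lay nearest a TSS of another gene. Polycomb and trithorax group genes gave 5 of 25, with *Trl*, *ph-p* (894), *psq* (1724) and *tara* (2018) ahead of *brm*. The insulator and promoter architecture list gave *Trl* again, 1 of 12. Neuroblast genes gave 3 of 13, *brat* (196), *dlg1* (1476) and *insc* (3724), and ecdysone response genes 3 of 15, *br* (974), *Hr4* (1594) and *tai* (2563). For *brm*, *insc* and *br*, too, the nearest TSS was that of another gene. Growth regulators gave *Lk6* and *Akt* (3709) of 26, and tracheal genes *Stat92E* (1415) and *crb* (1813) of 19. Several lists share genes, and longer introns offer more sequence, so the shares are descriptions and were not tested.

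The sequence at these summits was rich in A and T. GC content averaged 36.2% in the 201 bases around the summit and 41.9% in flanks of the same length centred 500 bp away. In the replicates' own lists it was 38.0, 36.4 and 36.5% at the summits. Farther intronic summits were alike, at 36.1%, and promoter summits were at 38.2% with flanks at 45.3%. Of the flank windows, 28.2% touched an exon.

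All 2080 6-mers, read on both strands, were compared between summit and flank with an exact McNemar test, adjusted by Benjamini-Hochberg over all 2080. The test set each summit against 1 of its 2 flanks, drawn at random once. Flank shares and ratios average both flanks, so a p does not test exactly the shares printed beside it. Regions, not replicates, are the units of this test. A 6-mer was called if its adjusted p was under 0.05 and it moved the same way in all 3 replicates. On average 86.4% of the 492 summits matched a replicate's strongest peaks, so word shares by replicate come largely from the same regions. Their spread, here and below, reflects which regions entered each list. The call fell, over all 492 summits, on 104 6-mers that were more frequent at the summits (5% of those tested) and 95 that were less frequent (4.57%). Of the former, 90 had 4 or more A or T bases, and of the latter 74 had 2 or fewer. Among all 2080 6-mers, 720 had 4 or more and 720 had 2 or fewer. The counts thus moved with base composition, whose part in them was not tested. Among the 370 summits matched in both replicates 1 and 2, that is without replicate 3, the counts were 61 and 37, and among the 365 without replicate 2 they were 74 and 54. The most frequent against flanks were AGGGTA (ratio 2.97), CTGTAC (2.84), ACTGTA (2.77), AGTGTA (2.61) and GTGCAC (2.45), each with at least 2 G or C bases. ACTGTA was within 100 bp of 20.5% of the summits and in 7.42% of flanks (adjusted exact p = 9.83e-08), and CTGTAC, which overlaps it by its first letters, in 13.0 and 4.57% (adjusted exact p = 1.71e-05). CACTGTA, the same word with one more letter, was at 50 summits, or 10.2%, against 4.35% of promoter summits. It was at 8.82% of farther intronic and 6.43% of intergenic summits. The least frequent were CGAGGA (ratio 0.185), ACCGGC (0.222), CGGCTC (0.231), CCGCCG (0.243) and ATCCTC (0.244). With flanks that touched no exon, 77 and 27 6-mers were called instead. Among the 10 just named, GTGCAC (adjusted exact p = 0.124), CGAGGA (0.238), CCGCCG (0.09) and ATCCTC (0.433) then lost their call.

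The homeodomain core TAATTA passed the same test by a narrow margin. It was found at 16.3% of the summits and in 12.2% of flanks, with ratios of 1.18, 1.37 and 1.31 in the replicates (adjusted exact McNemar p = 0.047). This p rests on the 1 flank drawn per summit, while the 12.2% covers both flanks. Against flanks without exon bases the ratio was 1.28 and the adjusted exact p was 0.412. The control palindrome TTTAAA, also of A and T alone, had a larger ratio (33.5 against 16.4%, ratio 2.05; 1.90, 1.91 and 1.99 in the replicates). Among the 25 strongest summits 5 held TAATTA, those of *CG11050*, *Adf1*, *NFAT*, *norpA* and *CG42327*. TAATGA, which shares TAAT with the homeodomain core, had a ratio of 1.20, and the GATA core AGATAA had 1.40. Neither passed the McNemar test (adjusted exact p = 0.582 and 0.372). Of 19 listed motifs, 9 were above flanks in all 3 replicates, 3 were below and 7 were mixed. The GAGA factor's word GAGAGA was among those below, with a ratio of 0.846 in the optimal list and a mean of 0.769 over the replicates. Against flanks at 1000 bp its mean over the replicates was 1.13.

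The 6-mer with the smallest p against promoters was CGATAG. It was within 100 bp of 2.85% of the intronic summits, with 3.86% in their own flanks, but of 21.1% of promoter summits. The difference from flanks did not pass the McNemar test (adjusted exact p = 0.744), and in replicate 3 it was reversed (ratio 1.03). By replicate the summit shares were 2.64, 3.85 and 3.85% at intronic and 17.7, 19.8 and 20.3% at promoter summits, which do not overlap. The adjusted p against promoters was 5.24e-25 (two-sided Fisher's exact test over all 2080 6-mers, with regions as units). TATCGA (8.13 against 25.3%, adjusted exact p = 3.58e-16) and ATCGAT, the centre of the DREF element (6.10 against 20.1%, adjusted p = 6.17e-13), overlap it and went the same way. The related word CGATAA had a smaller difference (9.15 against 17.2%, adjusted exact p = 0.000776). GGTCAC, the first letters of Motif 1, was rarer at intronic summits (2.44 against 10.1%, adjusted exact p = 6.71e-07), and GTCACA, also inside Motif 1, was too (5.49 against 12.7%, adjusted exact p = 0.000263). In the optimal list both were below the intronic summits' own flanks, at 4.37 and 7.11%, differences that did not pass the McNemar test (adjusted exact p = 0.215 and 0.55). Rarer as well was CAACAC (9.35 against 18.9%, adjusted exact p = 2.71e-05). In total 75 6-mers were less frequent than at promoters (3.61%). None of the 25 strongest intronic summits held CGATAG, which is near the share over all of them, 14 of 492.

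Some words went the other way, with 53 6-mers more frequent than at promoter summits (2.55%). They were headed by CTGTAC (13.0 against 5.40%) and ACTGTA (20.5 against 10.8%), each with an adjusted exact p of 9.67e-06. Over the replicates ACTGTA was in 19.6% ± 0.623 of intronic and 10.9% ± 0.707 of promoter windows (SD, n = 3), and no intronic value was as low as a promoter value. CATACA was another (17.7 against 9.65%, adjusted exact p = 0.000282). Without replicate 1, 2 or 3, 19, 21 and 20 6-mers were more frequent and 21, 26 and 26 less frequent than at promoters. ACACTG, whose letters occur at the end of Motif 1, was frequent at both, at 17.3% with flanks at 7.11% (adjusted McNemar p = 9.24e-06) and 21.8% at promoters, a difference that did not pass (adjusted Fisher p = 0.182). Against farther intronic summits no 6-mer passed the Fisher test in either direction. There 87 had an unadjusted p under 0.05, and the smallest adjusted p was 0.182, for CTAATC (9.15 against 3.56%) and, in the other direction, for the word ACTGAG (8.13 against 15.5%). Of the farther intronic summits, 15.8% had ACTGTA and 4.64% had CGATAG. The shorter CAGTG was within 100 bp of 51.8% of the near summits, 47.2% of promoter summits and 54.6% of farther intronic ones, with 30.6% in the flanks of the first.

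**Figure D4:**
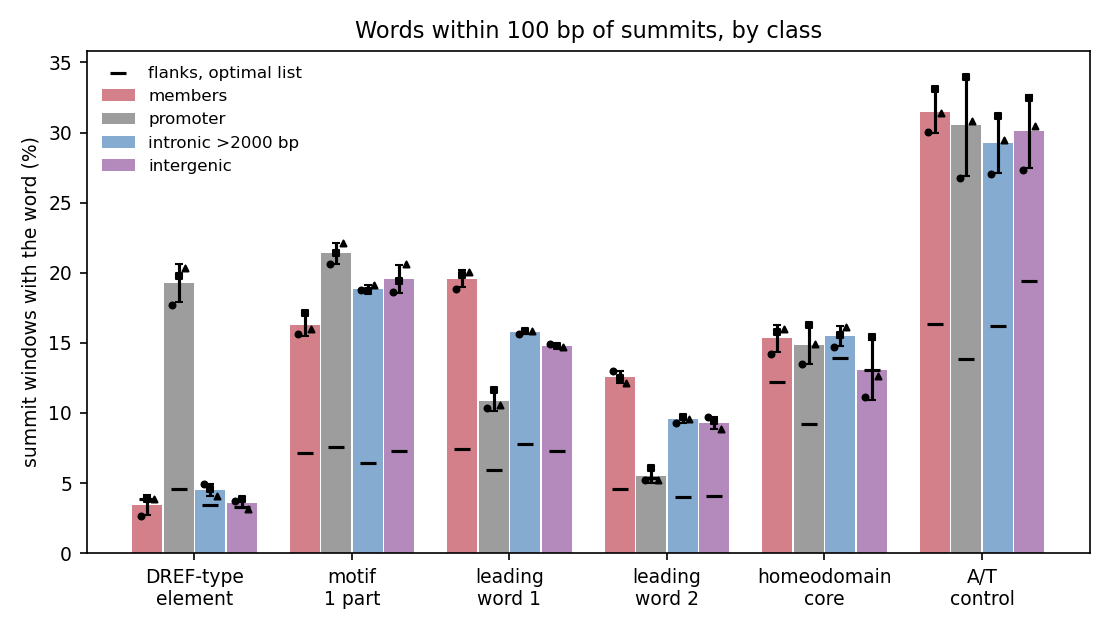
Share of summit windows (100 bp to each side, %) with each of 6 words, by class. Bars and lines are the mean and SD of 3 replicates, small points the replicates and short dashes the flanks of the optimal list. DREF-type element stands for CGATAG, motif 1 part for ACACTG, whose letters end Motif 1, leading words 1 and 2 for ACTGTA and CTGTAC, homeodomain core for TAATTA and A/T control for TTTAAA; the first has a mean of 19.3% at promoters and 3.44% in the intronic summits near a TSS (members).

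ACTGTA occurred 1.06 times per kb within 50 bp of the intronic summits, 1.22 times per kb between 50 and 150 bp and 0.447 times per kb between 150 and 300 bp. In the replicates' own lists the inner 2 bands were alike, at 1.11 ± 0.0750 and 1.10 ± 0.0248 per kb, and the outer band was at 0.476 ± 0.0267 (SD, n = 3). In bins of 20 bp its highest value, 3.66% of summits, was 80 to 100 bp away. CGATAG at promoters instead was most dense within 50 bp of the summit (1.68 per kb, against 1.07 and 0.508 farther out). At the intronic summits it was 0.163, 0.163 and 0.196 per kb in the same bands, from 8, 16 and 29 occurrences. In the replicates' lists it was 0.219 ± 0.0255, 0.163 ± 0.0343 and 0.199 ± 0.0185 (SD, n = 3), with the innermost band the highest in 3 of 3 replicates, and the promoter values were 1.51 ± 0.0559, 1.03 ± 0.0931 and 0.531 ± 0.0270.

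Between 50 and 150 bp the words had a common orientation, which was looked at after the profile had been seen. Around the intronic summits, 98 of 120 occurrences of ACTGTA read away from the summit, as in the printed windows of *norpA* and *for*. By replicate these were 78.5, 80.4 and 76.6% of occurrences, against 62.7, 60.6 and 63.5% at promoter summits (difference 16.2 points ± 3.33, SD, n = 3; exact p = 0.25). ACACTG had the opposite sense. It read toward the summit in 66 of 87 occurrences, or 70.3% in replicate 1, 75% in replicate 2 and 76.7% in replicate 3, while at promoters the shares were 52.0, 50.3 and 49.1% (difference 23.5 points ± 4.80, exact p = 0.25). Farther intronic and intergenic summits had this orientation of ACACTG too, at 84.0% ± 4.22 and 80.8% ± 1.49 (SD, n = 3), both above the mean of 74.0% ± 3.35 near a TSS (differences -10.0 and -6.83 points, exact p = 0.25 each). For ACTGTA farther intronic summits, at 77.5% ± 3.50, lay 0.946 points below those near a TSS (exact p = 0.75), and intergenic summits, at 66.1% ± 4.37, lay 12.4 points below (exact p = 0.25).

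**Figure D5:**
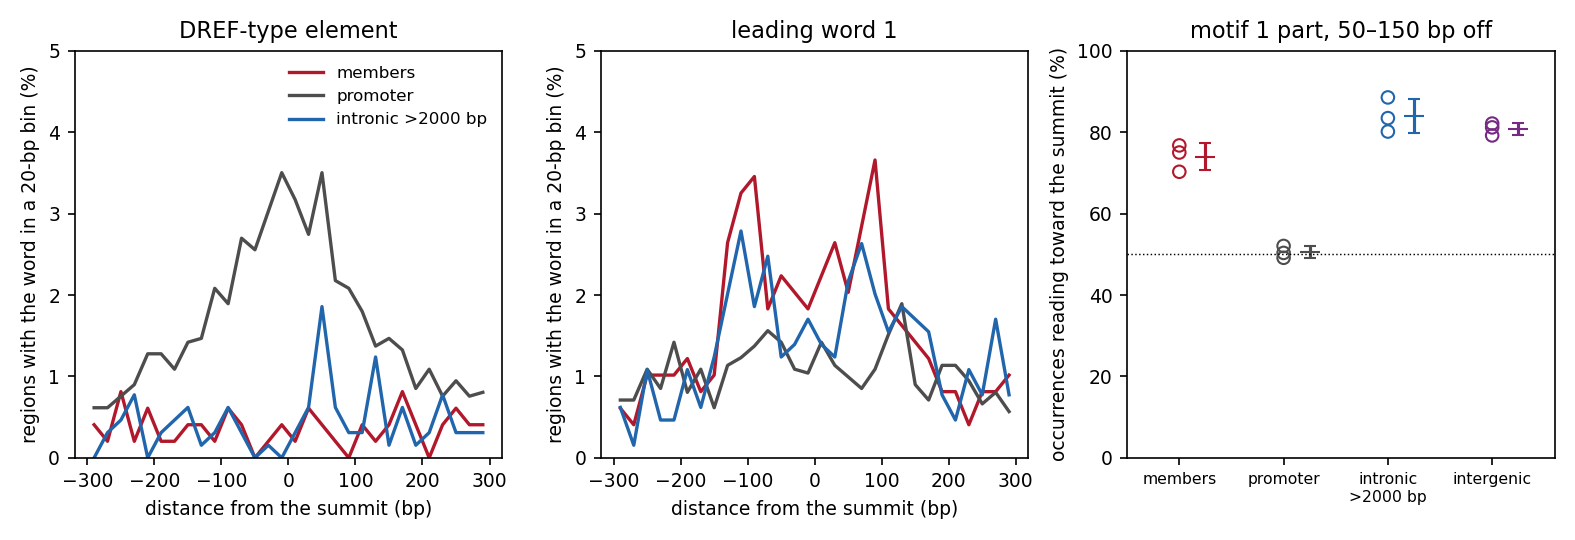
Left and centre: share of summits (%) with CGATAG (DREF-type element) and ACTGTA (leading word 1) in 20-bp bins by distance from the summit in bp, with lines for intronic summits near a TSS (members), promoter and farther intronic summits of the optimal list. Right: share of ACACTG (motif 1 part) occurrences between 50 and 150 bp from the summit that read toward it (%), circles for 3 replicates, bars for mean and SD, dotted line at 50%; members lie at 70.3 to 76.7% and promoters at 49.1 to 52.0%.

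Among the 492 summits, ACTGTA was at 19.5% of the 236 summits at 500 to 1000 bp and at 21.5% of the 256 farther out. Downstream of the nearest TSS it was at 21.1%, and upstream at 19.5%. ACACTG was at 21.5% of the stronger 246 summits and 13.0% of the weaker 246, TAATTA at 13.1% of summits at 500 to 1000 bp and 19.1% farther out, and CTGTAC at 19.5% of the 128 summits whose nearest TSS had a summit of its own against 10.7% of the other 364. These splits were not tested. Matches in all 3 replicates were found for 240 of the stronger 246 and 101 of the weaker 246.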

How the data were processed

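The data were peak lists of 3 biological replicates in narrowPeak format, on dm6. Notes deposited by the authors record that each replicate's alignments and a control gave its list, and that the optimal list, cut by the irreproducible discovery rate, came from these. Aligner and caller: not given in the sources used here. The control, the joint list and the dm3 lists were not analysed here. The signal column was used as deposited by the authors, for ranks only. The −log10 q column, as deposited by the authors, gave the entries with q under 0.01. Sonicated fragments were 200 to 800 bp, so summits are not exact binding positions.

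Summits were annotated with Ensembl release 115 and sequences read from Release 6, where 99.8% of 30593 annotated start codons read ATG. Replicate lists were cut to the 3866 highest-signal entries. Windows spanned 100 bp to each side of a summit, and flanks lay 500 bp away. Sign-flip, McNemar and Fisher tests were exact and two-sided, run in Python 3.11.15 with scipy 1.17.1, numpy 2.4.6, pandas 2.3.3 and matplotlib 3.10.9. The 6-mer tests were checked on simulated data. The labels call the replicates biological and do not say whether embryos were collected separately, so the spread may be technical.

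Genes named are the hosts of the 25 strongest summits found in all 3 replicates, hosts with 3 or more, up to 4 per gene list, summits at the limits and *ems*, and the 5 most and 5 least frequent called 6-mers. Other named genes and words, and the orientation, were chosen after their values were seen. A gene list and a sequence are not reported here. The members and lists were chosen with earlier results of these data known. Alternatives varied the summit definition, annotation, distance limits, matching rule, window, flank, comparison class and replicates.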

Additional observations from a re-analysis of the deposited data

How the results depend on the processing

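The count of 492 summits became 256 with limits of 1000 to 2000 bp and 273 among the 1933 strongest optimal peaks; without one replicate it ranged over 365 to 391. Mean recovery of 86.4% became 82.4% with summits within 100 bp and 80.1% with a reciprocal overlap of 50%. Its difference from promoters turned to -0.205 points with replicate peaks of q under 0.01, and ranged from 0.0536 to 1.41 without one replicate. For the 6-mers, the 104 more frequent at summits became 65 with flanks at 1000 bp and 35 among the stronger 246 summits, and 61 to 91 without one replicate. The 95 less frequent became 21 among those 246, 27 with flanks free of exon bases (an alternative chosen after seeing the data) and 37 to 86 without one replicate. Of the 104 and 95, 67 and 18 were also called with exon-free flanks. Against promoters, 53 and 75 became 17 and 32 with windows of 50 bp, 0 and 0 with farther intronic summits as the class, and 19 to 21 and 21 to 26 without one replicate, where fewer summits enter the test. With flanks at 1000 bp the log2 ratio of GAGAGA changed sign to 0.17, that of TGACCT to 0.0102 and that of TTCNNNGAA to -0.21. Over the main values of the comparisons, 63 recomputed values stayed close to those reported, 21 moved and 1 changed sign; for single motifs and genes the counts were 146, 44 and 3. The causes were not tested where none is given. No pairing of samples across groups applies, since there is 1 group. Unknown depth limits what absence from a list shows.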
